A study of Mus musculus with 21 samples.

Results

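The genes described here carry insulin and insulin-like growth factor (IGF) signalling in pancreatic β-cells. They were chosen by symbol from a fixed list of 10 genes, of which 9 had a row among the 21913 rows of the deposited expression table: the IGF-binding protein genes Igfbp5 and Igfbp7, the receptor genes Igf1r and Igf2r, the receptor substrate genes Irs1 and Irs2, the phosphoinositide 3-kinase (PI3K) subunit gene Pik3r1, and the kinase genes Akt1 and Akt2. The tenth gene was not analysed here. RNA from sorted mouse β-cells was sequenced in 18 libraries, 8 labelled Ldb1-KO, 5 labelled Isl1-KO and 5 labelled WT, and the question put to these genes was whether their RNA levels depend on LDB1, an adaptor of LIM-domain factors, or on ISL1, a LIM-homeodomain factor of islet cells. The Ldb1-KO mice were Ldb1L/L and the Isl1-KO mice Isl1L/L, and both knockout groups and the WT group carried a Rosa26LsLeYFP reporter on both alleles and MIP-CreERTm, a tamoxifen-activated Cre under an insulin promoter, on a mixed SV/129 and C57Bl/6 background. All were male and all received tamoxifen by gavage, 5 doses per round. In the Ldb1-KO and WT groups each dose was 150 µg per g, with rounds starting at postnatal days 28 and 35 and collection at day 56. In the Isl1-KO group each dose was 100 µg per g, with 1 round from day 28 and collection at day 49, so genotype, age and dose cannot be told apart in any comparison with that group. Whether each library is a different mouse is not in the labels, so the p-values measure only the spread between libraries, which may be technical.

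In the pathway's usual course, insulin or an IGF binds a receptor tyrosine kinase, which phosphorylates the substrates IRS1 and IRS2. These recruit PI3K through its regulatory subunits, and the lipid that PI3K makes brings AKT kinases to the membrane, where they are activated and in turn restrain FOXO transcription factors. In mice, loss of Irs2 causes β-cell failure and diabetes, and IRS2 is known as the main substrate that sustains β-cell mass. IGF-binding proteins act outside the cell and alter how much IGF reaches its receptor.

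Levels are given on the deposited scale, read as log2 of a normalized value plus 1, and differences are log2 differences on that scale. They were tested with limma using a single model for the 18 libraries. P-values were adjusted over 13501 genes by the Benjamini-Hochberg method, the threshold was 0.05, and intervals are 95% intervals of that model. All 9 genes passed the filter on low values and lay above 0 in all 18 libraries, from 5.56 for Irs2 in 1 WT library to 10.81 for Igf2r in another. Transcript lengths were not taken into account, so levels of different genes were not compared.

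The libraries differed in estimated depth, in the normalized value that 1 read step stands for, by a range of 0.714 to 1.45, with a lower value in a deeper library. By this measure 5 Ldb1-KO libraries (replicates 2 and 5 to 8), 1 Isl1-KO library (replicate 3) and 2 WT libraries (replicates 1 and 5) were deeper. Ldb1 lay at 5.58 to 6.88 in Ldb1-KO against 7.11 to 7.66 in WT. Isl1 lay at 9.04 to 9.66 in Isl1-KO against 9.36 to 9.66 in WT. That Isl1 difference did not pass, and the deleted part was not resolved. In Ldb1-KO, Isl1 RNA lay at 9.88 to 11.05, above WT by 1.01 (limma adjusted p = 2.78e-05). Of 10 β-cell markers 9 fell in Ldb1-KO against WT, with a median difference of -2.9, and 6 fell in Isl1-KO, with a median of -1.2. Their summed normalized value was 212300 to 420900 in Ldb1-KO, 357700 to 543000 in Isl1-KO and 529200 to 656900 in WT, a sum that rests on a few genes at the top of the scale. WT replicate 1 stood apart with a sum of 78710 over 14 acinar markers, while the Ldb1-KO libraries reached at most 3211 and the Isl1-KO libraries at most 1157. Endothelial and mesenchymal markers were low throughout, with sums over 8 endothelial genes of 14.7 to 45.2 in Ldb1-KO, 16.8 to 64.4 in Isl1-KO and 16.1 to 47.5 in WT, and over 10 mesenchyme and pericyte genes of 0 to 18.04 in Ldb1-KO, 0 to 5.45 in Isl1-KO and 7.45 to 18.9 in WT. The sum over 7 α-cell markers was 12010 to 56110 in Ldb1-KO, 10130 to 17370 in Isl1-KO and 4077 to 4974 in WT, and that over 12 duct markers was 3182 to 6262, 3472 to 5874 and 2767 to 3645 in the same groups. These sums too rest on a few genes, such as Ttr among the α-cell markers and Krt7, Krt18 and Epcam among the duct markers. Krt7, Krt18 and Epcam had medians of at least 9.42 in every group, whereas Krt19 and Sox9 had medians of at most 1. The sum over 6 δ- and PP-cell markers was 1112 to 2548 in Ldb1-KO, 536.4 to 3470 in Isl1-KO and 613.6 to 1397 in WT. In bulk RNA, fewer cells of a type and less RNA per cell cannot be told apart, and the part of other cell types in the differences below was not tested.

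Of the 9 genes, 5 differed between Ldb1-KO and WT, where 21.7% of all tested genes were called, 10.6% higher and 11.0% lower. Among the 9, Igfbp7 and Pik3r1 rose and Igfbp5, Igf1r and Akt1 fell. Between Isl1-KO and WT 1 of the 9 was called, Pik3r1, which rose, against 15.4% of all tested genes, 7.02% higher and 8.39% lower. Between Ldb1-KO and Isl1-KO 1 of the 9 was called, Igfbp7, higher in Ldb1-KO, against 13.3% of all tested genes, 6.96% higher and 6.31% lower. The median difference of the 9 genes was -0.19 in Ldb1-KO, 0.0033 in Isl1-KO and -0.19 between the knockouts, while that of all tested genes was -0.0126, -0.0288 and 0.0154. The comparisons with WT share the WT libraries. The genes were chosen with earlier results of these data known, so these counts describe the list and do not test it.

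**Figure D1:**
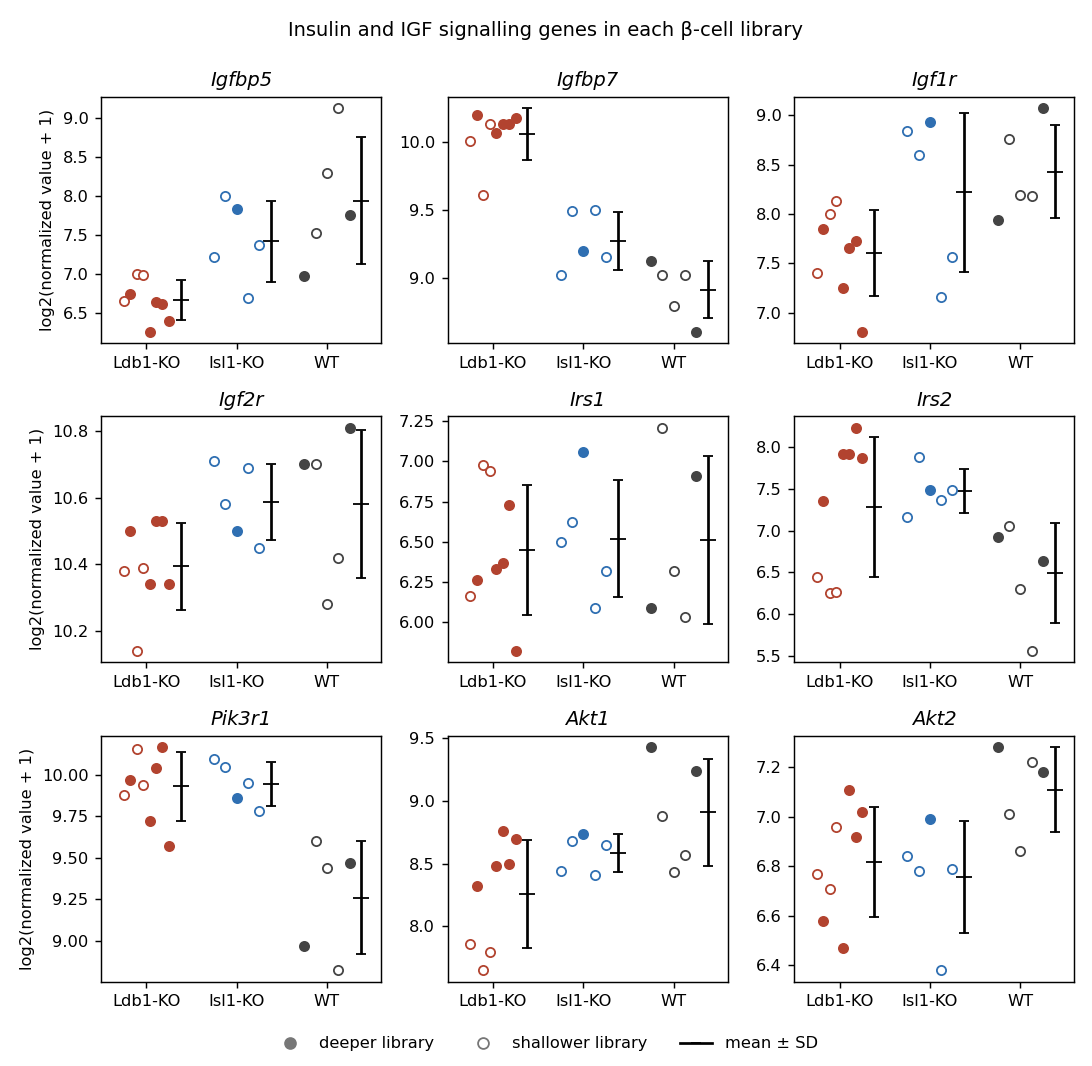
Level of each of the 9 genes in every library, as log2 of the normalized value plus 1, for 8 Ldb1-KO, 5 Isl1-KO and 5 WT libraries. Filled points are deeper libraries, open points shallower ones, and bars are mean ± SD. The 8 Ldb1-KO points of Igfbp7 lie at 9.61 to 10.2, above all 5 Isl1-KO points and all 5 WT points. The vertical axes do not start at 0 and differ between panels.

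The IGF-binding protein genes moved apart in Ldb1-KO. IGFBP7 binds IGFs weakly and is also known as a secreted matrix protein, and IGFBP5 binds IGFs with high affinity and can hold them in the matrix. Their promoters are shown because these genes had the largest differences of the 9. The sequences are the 250 bases before the RefSeq gene start on build GRCm38.p6, both on the minus strand, at chr5:77408046-77408295 for Igfbp7 and chr1:72874866-72875115 for Igfbp5, written 5′ to 3′. Capitals mark the letters GGGCGG, the GC box that SP1 family factors bind, on either strand.
Igfbp7: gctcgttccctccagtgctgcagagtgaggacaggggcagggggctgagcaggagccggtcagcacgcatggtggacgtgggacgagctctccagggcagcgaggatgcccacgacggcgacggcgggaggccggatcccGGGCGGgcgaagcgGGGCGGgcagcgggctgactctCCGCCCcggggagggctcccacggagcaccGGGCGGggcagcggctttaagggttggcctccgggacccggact
Igfbp5: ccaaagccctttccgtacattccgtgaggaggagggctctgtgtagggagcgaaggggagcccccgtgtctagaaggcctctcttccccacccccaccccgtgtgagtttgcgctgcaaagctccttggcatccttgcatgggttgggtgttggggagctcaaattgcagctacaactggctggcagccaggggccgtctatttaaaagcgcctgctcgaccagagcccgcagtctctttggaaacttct
The Igfbp7 window held 4 GC boxes and the Igfbp5 window held 0, where 32.7% of 32851 RefSeq promoter windows of the same length held at least 1. Both strands were also searched for the E-box letters CACGTG, the insulin response element core TGTTTTG, the FOXO consensus GTAAACA, the cAMP response element TGACGTCA and the homeodomain core TAATTA, and neither window held any of them. Of all windows, 3.17% held the FOXO letters, 1.55% the cAMP element and 4.84% the homeodomain core.

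Igfbp7 had the smallest p of the 9 genes in Ldb1-KO. The 8 Ldb1-KO libraries lay at 10.01, 10.20, 9.61, 10.14, 10.07, 10.14, 10.14 and 10.18, the 5 Isl1-KO libraries at 9.02, 9.49, 9.20, 9.50 and 9.15, and the 5 WT libraries at 9.12, 9.02, 8.79, 9.02 and 8.60. All 8 Ldb1-KO libraries were above every other library, and the Isl1-KO and WT ranges overlapped. Igfbp7 rose to 10.06 ± 0.19 (n = 8, SD) in Ldb1-KO, against 8.91 ± 0.21 (n = 5, SD) in WT, a difference of 1.15 (SE 0.12, limma adjusted p = 1.79e-07), or 2.22-fold. Its level in Isl1-KO was 9.27 ± 0.22 (n = 5, SD), and the difference of 0.36 from WT did not pass (interval 0.08 to 0.64, adjusted p = 0.0753), while with depth as a covariate it was 0.41 and passed (adjusted p = 0.0371). The direct difference of the knockouts was 0.79 (SE 0.12, adjusted p = 1.32e-04), higher in Ldb1-KO. In the authors' deposited table the log2 fold changes were 1.06, 0.21 and 0.84 for these 3 comparisons, with FDR 8.33e-09, 0.808 and 4.38e-06. The gene overlaps Polr2b and Gm34648 in the RefSeq annotation of GRCm38.p6, and the sources used here do not say whether counting used strand.

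Igfbp5 moved the other way. It lay at 6.66, 6.75, 7.0, 6.99, 6.26, 6.64, 6.61 and 6.40 in the Ldb1-KO libraries, at 7.22, 8.00, 7.83, 6.69 and 7.37 in the Isl1-KO libraries and at 6.98, 7.53, 8.30, 9.13 and 7.76 in the WT libraries. Only WT replicate 1, the library with high acinar markers, reached down into the Ldb1-KO range, and the WT group was the most spread of the 3, over 2.15. Igfbp5 fell to 6.66 ± 0.26 (n = 8, SD) in Ldb1-KO, against 7.94 ± 0.82 (n = 5, SD) in WT, a difference of -1.28 (SE 0.27, limma adjusted p = 0.00118). The Isl1-KO mean of 7.42 ± 0.52 (n = 5, SD) stood between the other groups, with a difference of -0.52 from WT (interval -1.13 to 0.09, adjusted p = 0.255). Without WT replicate 4, the highest, this was -0.22 (adjusted p = 0.607), and without Isl1-KO replicate 4, the lowest of its group, it was -0.34 (adjusted p = 0.481). Ldb1-KO was below Isl1-KO by -0.76, which did not pass (adjusted p = 0.0624). Without Isl1-KO replicate 4 that difference was -0.94 and passed (adjusted p = 0.0209), and the authors' deposited table gives it an FDR of 0.00352.

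The receptor genes showed smaller differences. IGF1R is the tyrosine kinase that IGFs activate, and IGF2R takes up IGF2 and mannose 6-phosphate proteins and sends them to lysosomes. Igf1r lay at 7.40, 7.85, 8.00, 8.13, 7.25, 7.66, 7.73 and 6.81 in the Ldb1-KO libraries, at 8.84, 8.60, 8.93, 7.16 and 7.57 in the Isl1-KO libraries and at 7.94, 8.76, 8.19, 8.18 and 9.07 in the WT libraries. Ldb1-KO replicates 3 and 4 lay within the WT range and the other 6 below it, and all 8 were below the WT mean. Igf1r fell to 7.60 ± 0.43 (n = 8, SD) in Ldb1-KO, against 8.43 ± 0.47 (n = 5, SD) in WT, by -0.83 (SE 0.29, limma adjusted p = 0.0448). This call was close to the threshold. It was lost when any of 9 libraries was left out, WT replicates 2 to 5 and Ldb1-KO replicates 1 and 5 to 8, with adjusted p up to 0.147. It was also lost with depth as a covariate (-0.85, adjusted p = 0.0550) and with the trend and robust settings of limma off (-0.83, adjusted p = 0.0646). The authors' deposited table gives an FDR of 1.83e-04.

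The Isl1-KO group was split for Igf1r, with replicates 1 to 3 at 8.60 to 8.93 and replicates 4 and 5 at 7.16 and 7.57, below every WT library. The same split was seen over all genes on the second principal component, where replicates 1 to 3 lay at 47.4 to 56.6 and replicates 4 and 5 at 0.193 and -0.761. The summed δ- and PP-cell markers also split this way, at 2120, 3470 and 2081 in replicates 1 to 3 and 536.4 and 753.2 in replicates 4 and 5. So did the α-cell sums, at 12300, 17370 and 13440 against 10130 and 11430. The duct sums split the opposite way, at 4217, 4035 and 3472 against 5874 and 5284, as did the acinar and endothelial sums. The part of any of these cell types in the Igf1r values was not tested. The group difference from WT, -0.21, did not pass (adjusted p = 0.718). With replicates 1 to 3 left out it was -1.06 (adjusted p = 0.0430), and with replicates 4 and 5 left out it was 0.36 (adjusted p = 0.354). Against Ldb1-KO the difference of -0.62 did not pass with all libraries (adjusted p = 0.165) and was -1.19 without replicates 4 and 5 (adjusted p = 0.00186).

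Igf2r was among the least variable genes, with a within-group SD smaller than that of all but 4.56% of tested genes. Its 8 Ldb1-KO libraries lay at 10.14 to 10.53 (median 10.39), its 5 Isl1-KO libraries at 10.71, 10.58, 10.50, 10.69 and 10.45, and its 5 WT libraries at 10.70, 10.70, 10.28, 10.42 and 10.81. The ranges overlapped. The difference from WT was -0.19 in Ldb1-KO (interval -0.41 to 0.03, limma adjusted p = 0.217) and 0.0033 in Isl1-KO (interval -0.24 to 0.24, adjusted p = 0.990). The antisense transcript Airn overlaps Igf2r, and its reads could be included in these values. Non-coding genes also overlap Igf1r (Gm51488, Gm51487), Irs2 (9530052E02Rik) and Akt1 (Mir6939, Gm30150).

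The receptor substrate genes Irs1 and Irs2 differed in how much they varied. Their promoters are shown with that of Irs4, of the same family, because they share a pair of neighbouring motifs. The windows are the 250 bases before the RefSeq start on GRCm38.p6, all on the minus strand, at chr1:82291440-82291689 for Irs1, chr8:11008930-11009179 for Irs2 and chrX:141725218-141725467 for Irs4, written 5′ to 3′. Capitals mark CACGTG, an E-box, TGTTTTG, the core of an insulin response element that FOXO factors are known to bind, and GGGCGG, on either strand. The E-box and TGTTTTG overlap in Irs1 and are 1 base apart in Irs2 and Irs4.
Irs1: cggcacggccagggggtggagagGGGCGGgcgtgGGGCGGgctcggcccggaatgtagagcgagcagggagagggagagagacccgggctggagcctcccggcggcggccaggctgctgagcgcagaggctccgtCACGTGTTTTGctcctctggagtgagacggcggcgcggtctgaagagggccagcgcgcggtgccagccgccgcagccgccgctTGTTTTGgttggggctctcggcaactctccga
Irs2: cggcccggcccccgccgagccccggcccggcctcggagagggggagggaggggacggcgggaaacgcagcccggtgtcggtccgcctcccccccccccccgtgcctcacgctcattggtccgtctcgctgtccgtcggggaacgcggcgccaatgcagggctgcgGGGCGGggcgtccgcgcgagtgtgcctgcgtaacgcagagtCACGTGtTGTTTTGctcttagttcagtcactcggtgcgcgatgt
Irs4: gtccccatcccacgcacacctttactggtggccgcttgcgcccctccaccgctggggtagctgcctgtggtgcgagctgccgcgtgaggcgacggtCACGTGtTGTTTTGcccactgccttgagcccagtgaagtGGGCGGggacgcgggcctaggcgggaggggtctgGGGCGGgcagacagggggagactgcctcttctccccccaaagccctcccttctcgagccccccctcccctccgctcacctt
CACGTG began 115, 44 and 154 bases before the start of Irs1, Irs2 and Irs4, and TGTTTTG began 111, 37 and 147 bases before it. A further TGTTTTG lay 32 bases before the Irs1 start. CACGTG was present in 6.02% and TGTTTTG in 5.56% of the 32851 promoter windows, both in 0.295%, and both with first bases at most 8 apart in 7 windows, or 0.0213%, each of a different gene and 3 of them Irs1, Irs2 and Irs4. That distance was chosen after the sequences had been seen, and the count is a description of these letters alone. The window of Irs3, the remaining Irs gene of the table, held neither motif. Irs3 and Irs4 were at or near 0 in these libraries, at most 1.82 and 1.00, and were not tested.

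Irs2 was the gene of the 9 with the widest spread among the Ldb1-KO libraries. It lay at 6.44, 7.35, 6.25, 6.27, 7.92, 7.92, 8.23 and 7.87 in the Ldb1-KO libraries, at 7.16, 7.88, 7.48, 7.37 and 7.48 in the Isl1-KO libraries and at 6.92, 7.06, 6.30, 5.56 and 6.64 in the WT libraries. Every Isl1-KO library was above every WT library, whereas the Ldb1-KO libraries fell into 3 within the WT range and 5 above it. The means were 7.28 ± 0.83 (n = 8, SD) in Ldb1-KO, 7.47 ± 0.26 (n = 5, SD) in Isl1-KO and 6.49 ± 0.60 (n = 5, SD) in WT. Neither difference passed, at 0.79 for Ldb1-KO (interval 0.08 to 1.5, limma adjusted p = 0.110) and 0.98 for Isl1-KO (interval 0.19 to 1.77, adjusted p = 0.0882). In the authors' deposited table the log2 fold changes were 0.83 with an FDR of 0.106 and 0.71 with an FDR of 0.0384.

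Depth moved with Irs2 in the Ldb1-KO group. The 3 Ldb1-KO libraries at 6.25 to 6.44 were the 3 shallower ones, and the 5 at 7.35 to 8.23 were the deeper ones. Over all genes these 3 also stood apart on the first principal component, at -45.2, -47 and -40.5, against -28.9 to -15.8 in the 5 deeper ones. Depth and another difference between these libraries cannot be told apart. Among deeper libraries alone, a split chosen after the data were seen, the 5 Ldb1-KO values stood above the WT values of 6.64 and 6.92. The difference was 1.08 and rests on 2 WT libraries, of which replicate 1 had high acinar markers. Among shallower libraries the 3 Ldb1-KO values lay inside the WT range of 5.56 to 7.06, while the 4 Isl1-KO values of 7.16 to 7.88 were above it, with a difference from WT of 1.17 (adjusted p = 0.0156). With depth as a covariate the differences from WT passed in both knockouts, at 0.91 in Ldb1-KO (adjusted p = 0.00108) and 1.37 in Isl1-KO (adjusted p = 1.43e-04). That fit, like the others with depth as a covariate, takes a common slope for all groups. In Isl1-KO the deepest library, at 7.48, lay within the 7.16 to 7.88 of the others, while the shallowest, replicate 1, was the lowest at 7.16. The 1.37 rests on the common slope, and the slope within that group was not estimated. The part of depth in the Irs2 level of the Ldb1-KO group was not tested beyond these fits.

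**Figure D2:**
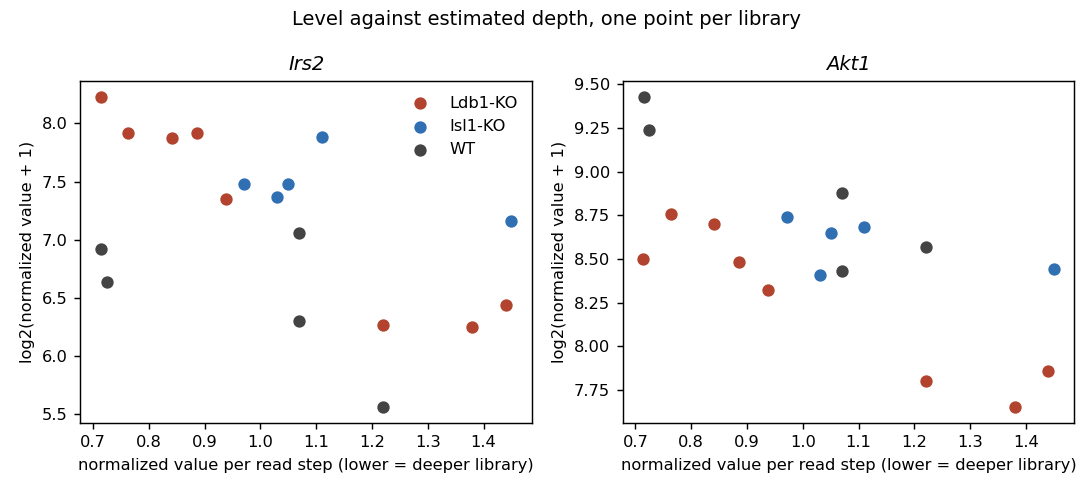
Level of Irs2 and of Akt1, as log2 of the normalized value plus 1, against the normalized value per read step, where a lower value means a deeper library, with 1 point for each of 8 Ldb1-KO, 5 Isl1-KO and 5 WT libraries. The 3 shallower Ldb1-KO libraries, at 1.22 to 1.44 on the depth axis, have the lowest values of that group in both panels, at most 6.44 for Irs2 and 7.86 for Akt1. These 3 also stood apart from the rest of their group over all genes. The vertical axes do not start at 0.

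Irs1 did not separate the groups. Its 8 Ldb1-KO libraries lay at 5.82 to 6.98 (median 6.35), its 5 Isl1-KO libraries at 6.50, 6.62, 7.06, 6.09 and 6.32, and its 5 WT libraries at 6.09, 7.21, 6.32, 6.03 and 6.91. All 3 ranges overlapped. The differences from WT were -0.06 in Ldb1-KO (interval -0.52 to 0.39, limma adjusted p = 0.875) and 0.0046 in Isl1-KO (interval -0.50 to 0.51, adjusted p = 0.994).

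The balance of the substrate genes was taken within each library as Irs2 minus Irs1, in which a constant scaling factor of a library cancels, though not the effect of quantile normalization or the added 1. It was 0.28, 1.09, -0.73, -0.66, 1.59, 1.55, 1.51 and 2.05 in the Ldb1-KO libraries, 0.66, 1.26, 0.42, 1.28 and 1.15 in the Isl1-KO libraries and 0.83, -0.16, -0.02, -0.48 and -0.26 in the WT libraries. The Isl1-KO libraries all lay above 4 of the 5 WT libraries, and WT replicate 1 reached into their range. Irs2 minus Irs1 was higher in Isl1-KO than in WT by 0.97, with an exact two-sided permutation p of 0.0238 that did not pass after adjustment over the 6 tests made on 2 gene pairs (adjusted p = 0.143). In Ldb1-KO it was higher than in WT by 0.85 (exact permutation p = 0.118, adjusted p = 0.210), in 6 of 8 libraries. The same measure for the kinases, Akt2 minus Akt1, was -1.44 ± 0.43 (n = 8, SD) in Ldb1-KO, -1.83 ± 0.17 (n = 5, SD) in Isl1-KO and -1.80 ± 0.34 (n = 5, SD) in WT, and none of its 3 differences passed (exact permutation tests, smallest adjusted p = 0.210).

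**Figure D3:**
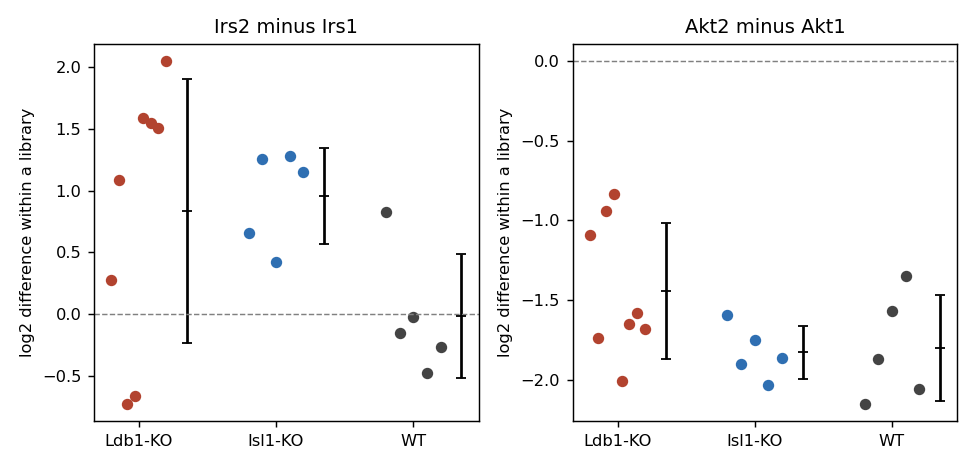
Difference between the log2 levels of Irs2 and Irs1, and of Akt2 and Akt1, within each library, for 8 Ldb1-KO, 5 Isl1-KO and 5 WT libraries, with mean ± SD as bars. Irs2 minus Irs1 spans -0.73 to 2.05 in Ldb1-KO, 0.42 to 1.28 in Isl1-KO and -0.48 to 0.83 in WT.

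Pik3r1 was the only one of the 9 genes called in both knockouts against WT, comparisons that share the WT libraries. It encodes p85α, a regulatory subunit that docks on phosphorylated IRS proteins and holds the catalytic subunit of PI3K. Its promoter is shown because of those calls, as the 250 bases before the more upstream of its 2 RefSeq starts on GRCm38.p6, on the minus strand at chr13:101768218-101768467, with GGGCGG in capitals.
Pik3r1: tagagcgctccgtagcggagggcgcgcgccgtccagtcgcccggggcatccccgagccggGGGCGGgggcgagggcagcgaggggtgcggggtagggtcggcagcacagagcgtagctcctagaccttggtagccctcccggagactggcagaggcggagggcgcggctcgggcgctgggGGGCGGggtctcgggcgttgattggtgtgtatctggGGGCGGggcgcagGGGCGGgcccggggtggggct
That window held 4 GC boxes and none of the other 5 strings searched.

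The 8 Ldb1-KO libraries lay at 9.88, 9.97, 10.16, 9.94, 9.72, 10.04, 10.17 and 9.57 for Pik3r1, the 5 Isl1-KO libraries at 10.10, 10.05, 9.86, 9.95 and 9.78, and the 5 WT libraries at 8.97, 9.60, 9.44, 8.82 and 9.47. All Isl1-KO libraries and 7 of 8 Ldb1-KO libraries were above every WT library. Pik3r1 rose to 9.93 ± 0.21 (n = 8, SD) in Ldb1-KO and 9.95 ± 0.13 (n = 5, SD) in Isl1-KO, against 9.26 ± 0.34 (n = 5, SD) in WT. The differences were 0.67 (SE 0.13, limma adjusted p = 5.68e-04) and 0.69 (SE 0.15, adjusted p = 0.00221), or 1.59-fold and 1.62-fold. The knockouts differed from each other by -0.02 with an interval of -0.29 to 0.26. In the authors' deposited table the log2 fold changes against WT were 0.57 with an FDR of 0.0165 and 0.50 with an FDR of 0.0830, so the Isl1-KO call was not made there. It was also lost here without Isl1-KO replicates 1 to 3, at 0.61 (adjusted p = 0.0714).

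The AKT kinase genes were lower on average in both knockouts, and 1 of these differences passed. AKT1 and AKT2 are the kinases that PI3K signalling activates, and AKT2 is the one best known for glucose uptake in muscle and fat. Akt1 lay at 7.86, 8.32, 7.65, 7.80, 8.48, 8.76, 8.50 and 8.70 in the Ldb1-KO libraries, at 8.44, 8.68, 8.74, 8.41 and 8.65 in the Isl1-KO libraries and at 9.43, 8.88, 8.43, 8.57 and 9.24 in the WT libraries. The highest values were those of the deeper WT replicates 1 and 5, and the lowest those of the shallower Ldb1-KO replicates 1, 3 and 4. Those Ldb1-KO replicates also stood apart from the rest of their group over all genes. Within each depth class every Ldb1-KO library was below every WT library, at 8.32 to 8.76 against 9.24 to 9.43 in the deeper class and at 7.65 to 7.86 against 8.43 to 8.88 in the shallower class. The split was chosen after the data were seen, and WT replicate 1 of the deeper class had high acinar markers. Akt1 fell to 8.26 ± 0.43 (n = 8, SD) in Ldb1-KO, against 8.91 ± 0.43 (n = 5, SD) in WT, by -0.65 (SE 0.19, limma adjusted p = 0.0152). Without WT replicate 1 it was -0.52 (adjusted p = 0.0672) and without WT replicate 5 it was -0.57 (adjusted p = 0.0583). In Isl1-KO, at 8.58 ± 0.15 (n = 5, SD), the difference of -0.33 did not pass (interval -0.76 to 0.11, adjusted p = 0.325), and with depth as a covariate it was -0.09 (adjusted p = 0.698). The direct difference, Ldb1-KO minus Isl1-KO, was -0.33 and did not pass (adjusted p = 0.275), whereas with depth as a covariate it was -0.49 and passed (adjusted p = 0.00414).

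Akt2 lay at 6.47 to 7.11 in the 8 Ldb1-KO libraries (median 6.84), at 6.84, 6.78, 6.99, 6.38 and 6.79 in the Isl1-KO libraries and at 7.28, 7.01, 6.86, 7.22 and 7.18 in the WT libraries. All 13 knockout libraries were below the WT mean of 7.11, yet the ranges overlapped. The differences from WT were -0.29 in Ldb1-KO (interval -0.57 to -0.01, limma adjusted p = 0.132) and -0.36 in Isl1-KO (interval -0.67 to -0.04, adjusted p = 0.115).

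**Figure D4:**
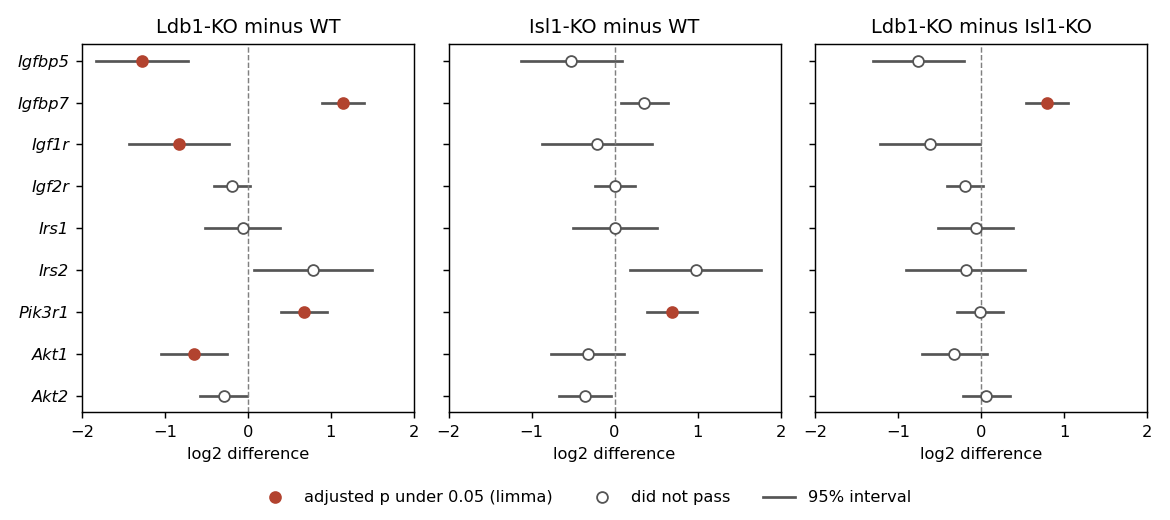
Log2 difference of each of the 9 genes in the comparisons Ldb1-KO minus WT, Isl1-KO minus WT and Ldb1-KO minus Isl1-KO, with 95% intervals from limma. Filled points passed an adjusted p of 0.05. In the left panel 5 points are filled, in the middle panel only Pik3r1 at 0.69 and in the right panel only Igfbp7 at 0.79.

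The other genes of the pathway were taken from 11 lists by role, 81 genes in all beside the 9, of which 73 passed the filter. In Ldb1-KO 8 of the 73 rose and 17 fell, 34.2% called against 21.7% of all tested genes, and their median difference was -0.094. In Isl1-KO 6 rose and 6 fell, 16.4% called against 15.4% of all tested genes, with a median of -0.0012. Between Ldb1-KO and Isl1-KO 4 were higher and 6 lower, 13.7% called against 13.3% of all tested genes, with a median of -0.069. The shares in Isl1-KO against WT and between the knockouts were thus near those of all tested genes. The lists were chosen with earlier results of these data known, and Ins1, Ins2 and Glp1r are also among the β-cell markers above. The larger share in Ldb1-KO is therefore a description of these lists and not a test of the pathway.

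Among ligands, both insulin genes fell in Ldb1-KO, Ins1 by -2.83 (limma adjusted p = 1.25e-05) and Ins2 by -2.95 (adjusted p = 2.0e-04). On the quantile-normalized scale these genes sit among the top ranks, where libraries share the same few values, so the differences are steps between ranks. The authors' deposited table gives log2 fold changes of -3.82 for Ins1 and -3.37 for Ins2. The sequences of these genes are close to each other, and how the authors assigned shared reads is unknown here. Among binding proteins and their proteases beside Igfbp5 and Igfbp7, 3 of 7 genes were tested. Pappa2, which encodes a protease that cuts IGFBP5, rose in Isl1-KO to 8.15 ± 0.64 (n = 5, SD), against 5.96 ± 1.13 (n = 5, SD) in WT (2.19, SE 0.58, adjusted p = 0.0174). Its Ldb1-KO level was 7.30 ± 0.99 (n = 8, SD), 1.34 from WT (adjusted p = 0.0821), for which the authors' deposited table has an FDR of 0.0280. Igfbp1 and Igfbp6 were at 0 in all 18 libraries. The receptor-like gene Insrr, named like Foxo1 below after its values were seen, did not pass, at -0.57 in Ldb1-KO (adjusted p = 0.105) and -0.50 in Isl1-KO (adjusted p = 0.239).

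Of 7 other substrate and adaptor genes tested, 1 rose and 1 fell in Ldb1-KO, where 10.6% of all tested genes rose and 11.0% fell. Grb14, whose product binds the activated receptor and inhibits it, rose to 7.63 ± 0.19 (n = 8, SD), against 6.77 ± 0.30 (n = 5, SD) in WT (0.87, SE 0.14, limma adjusted p = 8.39e-05), and was above Isl1-KO by 0.53 (adjusted p = 0.0177). All 8 Ldb1-KO libraries were above every Isl1-KO and WT library. Shc1, an adaptor towards RAS, fell by -0.71 in Ldb1-KO (adjusted p = 0.00331) and -0.58 in Isl1-KO (adjusted p = 0.0360).

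Of 7 further PI3K subunit genes, 1 rose and 2 fell in Ldb1-KO, where 10.6% of all tested genes rose and 11.0% fell. Pik3ca, a catalytic subunit, fell by -0.45 (limma adjusted p = 0.0363) and Pik3r2, which encodes the regulatory subunit p85β, by -0.45 (adjusted p = 0.0266), in contrast to Pik3r1. Pik3r5, a regulatory subunit of the γ class, rose by 1.38 in Ldb1-KO (adjusted p = 0.00874) and 1.32 in Isl1-KO (adjusted p = 0.0332), from a WT mean of 3.01. Of 7 genes that limit the pathway, 3 fell in Ldb1-KO and 0 were called in Isl1-KO against WT. Of all tested genes, 11.0% fell in Ldb1-KO and 15.4% were called in Isl1-KO, and in a list this short the 0 does not set Isl1-KO apart. Trib3, a pseudokinase that binds AKT, fell to 2.71 ± 0.72 (n = 8, SD), against 4.82 ± 0.34 (n = 5, SD) in WT (adjusted p = 8.48e-05), with no overlap. The receptor phosphatase gene Ptprf fell by -0.87 (adjusted p = 0.00197) and the AKT phosphatase gene Phlpp1 by -0.61 (adjusted p = 0.0342).

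Of 6 other genes of AKT and its activating kinases, 3 fell in Ldb1-KO and 0 were called in Isl1-KO against WT. Of all tested genes, 11.0% fell in Ldb1-KO and 15.4% were called in Isl1-KO, and here too the list is too short for the 0 to set Isl1-KO apart. Of the 6, Mtor fell in Ldb1-KO by -0.42 (limma adjusted p = 0.0301) and Mapkap1, a subunit of the complex mTORC2, by -0.41 (adjusted p = 0.0135). Among 15 AKT substrates and genes of the mTORC1 branch, 1 rose and 2 fell in Ldb1-KO, where 10.6% of all tested genes rose and 11.0% fell. Eif4ebp1, which encodes a translation repressor that mTORC1 switches off, fell to 3.8 ± 0.49 (n = 8, SD), against 5.69 ± 0.42 (n = 5, SD) in WT (adjusted p = 1.16e-05), and Gsk3a fell by -0.48 (adjusted p = 0.00814). Foxo3 rose by 0.73 in Ldb1-KO (adjusted p = 0.0113) and 1.31 in Isl1-KO (adjusted p = 2.68e-04), and its direct difference between the knockouts was -0.58 (adjusted p = 0.0586). Foxo1, the FOXO factor best known in β-cells, differed by 0.16 in Ldb1-KO and 0.05 in Isl1-KO and did not pass (adjusted p = 0.546 and 0.892). Rheb, the GTPase gene that activates mTORC1, fell in Isl1-KO by -0.42 (adjusted p = 0.0382).

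In the RAS-ERK branch 3 of 10 genes fell and 0 rose in Ldb1-KO, and 2 of 10 fell and 0 rose in Isl1-KO, where 21.7% and 15.4% of all tested genes were called. Both counts lie near these shares. Map2k1, the kinase gene above ERK, fell by -0.56 in Ldb1-KO (limma adjusted p = 0.00373) and -0.92 in Isl1-KO (adjusted p = 1.54e-04). Mapk3, which encodes ERK1, fell by -0.69 in Ldb1-KO (adjusted p = 0.00445).

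Of 9 genes known from other tissues as FOXO targets, 4 rose and 0 fell in Ldb1-KO, and 2 rose and 1 fell in Isl1-KO. Of all tested genes, 10.6% rose and 11.0% fell in Ldb1-KO, and 7.02% rose and 8.39% fell in Isl1-KO. Pdk4, which encodes a kinase that restrains pyruvate dehydrogenase, lay at 4.30 ± 1.33 (n = 8, SD) in Ldb1-KO and 3.23 ± 0.61 (n = 5, SD) in Isl1-KO, against 0.39 ± 0.55 (n = 5, SD) in WT, where its highest value was 1.16 (limma adjusted p = 3.78e-06 and 0.00119). Fbxo32, a ubiquitin ligase gene of muscle atrophy, rose by 0.99 (adjusted p = 1.85e-04) and 0.81 (adjusted p = 0.00606). Sesn1 rose by 0.62 in Ldb1-KO (adjusted p = 1.92e-04) and Txnip by 1.01 (adjusted p = 0.0298), which was named after its value was seen. Sesn3 fell by -0.70 in Isl1-KO (adjusted p = 0.00888) and was higher in Ldb1-KO than in Isl1-KO by 0.81 (adjusted p = 0.00146), as was the cyclin gene Ccng2 by 0.64 (adjusted p = 0.00478).

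Of 6 genes of the cAMP and CREB route, known to raise Irs2 transcription in β-cells, 1 rose and 1 fell in each knockout. The shares of all tested genes that rose and fell were 10.6% and 11.0% in Ldb1-KO, and 7.02% and 8.39% in Isl1-KO. Crem, which encodes a CREB family factor with activating and repressing forms, rose by 1.06 in Ldb1-KO (limma adjusted p = 1.47e-06) and 0.92 in Isl1-KO (adjusted p = 8.90e-05). The incretin receptor gene Glp1r fell by -2.94 in Ldb1-KO (adjusted p = 2.01e-10) and -1.54 in Isl1-KO (adjusted p = 3.48e-05).

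**Figure D5:**
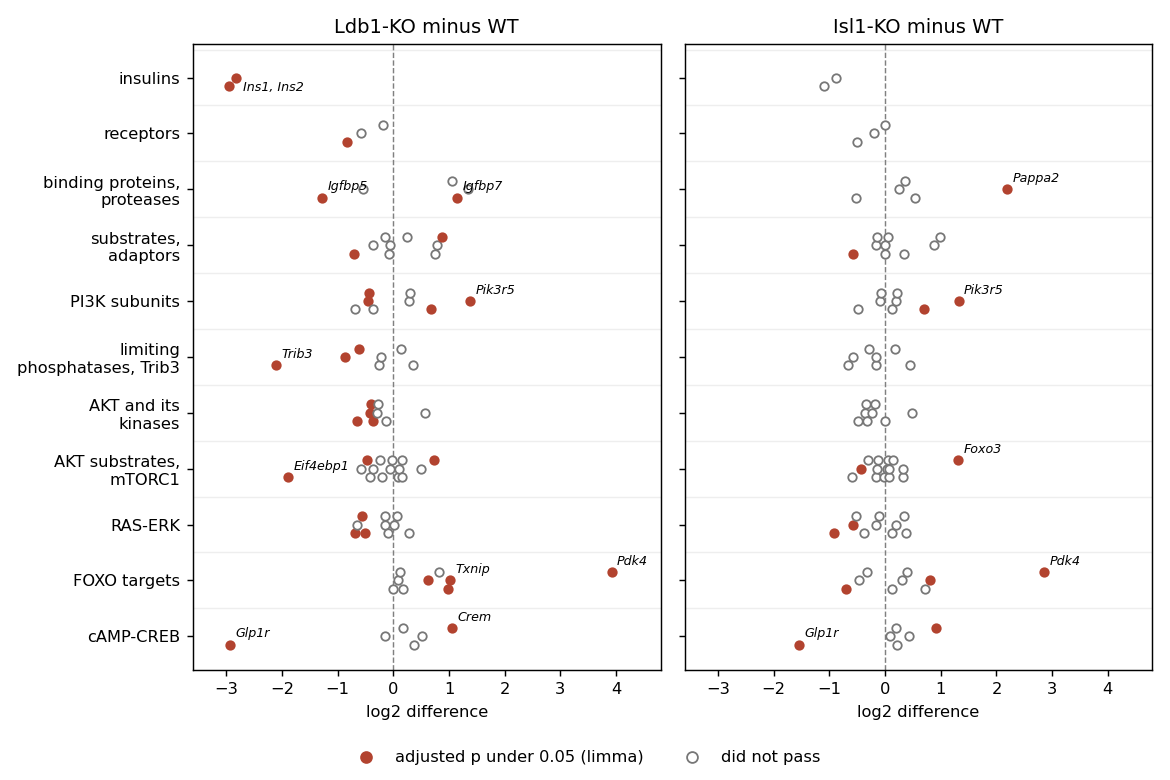
Log2 difference of every tested gene of the 11 pathway lists, the 9 genes included, in Ldb1-KO minus WT and Isl1-KO minus WT, with 1 row per list. Filled points passed an adjusted p of 0.05 by limma, and called genes with a difference of at least 1 are named. In the row of AKT and its kinases all filled points of the left panel lie below 0, the lowest at -0.65, and no point of the right panel is filled. Of all tested genes, 21.7% were called in the left comparison and 15.4% in the right.

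The genes most like Igfbp7 and Pik3r1 over the 18 libraries, by the root mean square distance after each gene was centred on its own mean, were named by rule. Those nearest Igfbp7 were A130010J15Rik, Serpina10 and Khnyn, at distances of 0.239, 0.244 and 0.245, where Igfbp7 itself lay 0.535 around its mean. Serpina10, which encodes an inhibitor of clotting proteases, lay at 9.58 to 10.34 in Ldb1-KO, 9.10 to 9.96 in Isl1-KO and 8.94 to 9.44 in WT. Those nearest Pik3r1 were Heca, Herc1 and Chd6, at distances of 0.185, 0.190 and 0.194, where Pik3r1 lay 0.373 around its mean. Heca lay at 9.07 to 9.33 in Ldb1-KO, 9.02 to 9.15 in Isl1-KO and 8.29 to 8.78 in WT, with no overlap between WT and either knockout.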

How the data were processed

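RNA was read from the authors' deposited table, which holds per gene and library a log2 value, and the log2 fold changes, p-values and FDR that the authors deposited for 3 comparisons. The scale was read from the values as log2 of quantile-normalized values plus 1 (lowest 0, highest 18.29 in every library), which no label states. edgeR, HOMER and mm9 stand in the submitters' processing notes, while the aligner and counting are not given there or elsewhere in the sources used here. LDB1 and ISL1 peak lists were not used here, since no mm9 annotation was at hand. Groups came from sample titles, with 0 per-sample columns unused.

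Genes whose normalized value averaged 1 or more were tested on the log2 scale with limma 3.58.1 (trend and robust settings, statmod 1.5.0, R 4.3.3). Read totals are unknown, so no counting intervals are given. Relative depth came from the distinct values of each library in rising order: number 20 of them, divided by 20, stands for 1 read step, and libraries where number 20 was under 20 were called deeper. The genes and lists were chosen with earlier results of these data known. Named beside the 9 genes were up to 3 called genes per list and comparison, some of which are counted but not reported here, and the 3 genes most like the member with the smallest p against WT. Replicate numbers were not taken to pair the libraries.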

Additional observations from a re-analysis of the deposited data

Results flagged for a closer look

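Of 27 combinations of gene and group examined for a library far from the rest, 1 stood out, where chance gives about 1 in 20. Ldb1-KO replicate 3 lay at 9.607 for Igfbp7, while the other 7 Ldb1-KO libraries lay at 10.01 to 10.2, a gap of 0.678 of the group's range. It is a shallower library, and it was still above every Isl1-KO and WT library. Without it the Igfbp7 difference from WT was 1.22, and over all libraries left out in turn that difference was 1.07 to 1.22.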

How the results depend on the processing

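Of 630 recomputed single-gene differences of the 9 genes, 551 kept direction and side of the threshold, 18 fell short of it, 20 newly passed and 41 changed sign. Of 226 counts and paralogue differences, 197 held, 22 moved and 7 changed sign. The cause was not tested, except that settings with fewer libraries have fewer samples. The settings of deeper and shallower libraries alone, were chosen after seeing the data, and the deeper one has a lone Isl1-KO library, assumed to vary like the others.

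Members called in Isl1-KO against WT numbered 2 with only the 2 groups compared, 3 with depth as a covariate, 0 in deeper and 2 in shallower libraries. Between Ldb1-KO and Isl1-KO they numbered 2 with only those groups, 2 with depth, 3 without Isl1-KO replicates 4 and 5, 2 in deeper and 3 in shallower libraries. Genes called in Ldb1-KO against WT numbered 1608 in shallower libraries. In Isl1-KO against WT they numbered 1113 without Isl1-KO replicates 1 to 3, 1216 in deeper and 1054 in shallower libraries. Between the knockouts they numbered 336 without replicates 1 to 3, 3004 without replicates 4 and 5, and 992 in shallower libraries.

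Leaving out 1 library at a time gave 3 to 6 members called in Ldb1-KO against WT, 1 throughout in Isl1-KO against WT and 1 to 3 between the knockouts, with 2331 to 3081, 1500 to 2258 and 1081 to 2238 genes called. The 1081 is without Isl1-KO replicate 3 and the 2238 without replicate 4. Values that changed sign in these settings spanned -0.386 to 0.0583 for Igf1r, -0.0723 to 0.0597 for Igf2r, -0.131 to 0.18 for Irs1 and -0.117 to 0.0835 for Akt2 minus Akt1 in Isl1-KO against WT, and -0.183 to 0.112 for Irs1 in Ldb1-KO against WT. Between the knockouts they spanned -0.176 to 0.0669 for Irs1, -0.0318 to 0.12 for Akt2, -0.0599 to 0.0329 for Pik3r1 and -0.295 to 0.102 for Irs2 minus Irs1. Irs2 in Ldb1-KO passed without Ldb1-KO replicate 3 (0.94, adjusted p = 0.0484) or 4 (0.93, adjusted p = 0.0461).

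Other sign changes in Isl1-KO against WT were Irs1 at -0.0233 with depth, -0.307 without Isl1-KO replicates 1 to 3 and -0.139 in shallower libraries, Igf2r at -0.0126 without replicates 1 to 3 and -0.258 in deeper libraries, Igf1r at 0.364 without replicates 4 and 5 and 0.426 in deeper libraries, Igfbp5 at 0.462 in deeper libraries, and Akt2 minus Akt1 at 0.0504 without replicates 4 and 5. In Ldb1-KO against WT, Irs1 was 0.171 in shallower libraries. Between the knockouts, Irs1 was 0.243 and Igf1r 0.239 without replicates 1 to 3, Irs1 0.31 in shallower libraries, Irs2 0.38 in deeper libraries, and Pik3r1 0.0634, 0.0324 and 0.0194 without replicates 1 to 3, in deeper and in shallower libraries. Akt2 was -0.0514 without replicates 4 and 5 and -0.166 in deeper libraries, and Irs2 minus Irs1 was 0.053 without replicates 4 and 5.

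With the replicate number as a block, 4 members were called in Ldb1-KO against WT, 2 in Isl1-KO against WT and 2 between the knockouts, with 3271, 2154 and 1488 genes. Under the block Irs1 was 0.0208 against WT in Ldb1-KO, and between the knockouts Irs1 was 0.0162 and Akt2 -0.0555. Correlations of same-numbered deviations were -0.167 to 0.256. They were not set against those of differently numbered libraries, so a pairing by number was not tested.

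Another planned paralogue pair was not run because 1 of its genes was not analysed here, and peak positions with their alternatives were not run. Read totals are unknown, so depth limits could not be set per gene.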
